A study of Rattus norvegicus with 18 samples.

Results

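The 73 genes described here encode protein subunits of the mitochondrial ribosome, the mitoribosome. They are all genes whose platform symbol is Mrpl or Mrps followed by a number and which have a probe set with exactly 1 symbol; the brightest probe set, by mean signal over all arrays, stands for each gene. This gave 46 Mrpl and 27 Mrps genes of the 14217 named genes, by a rule that reads symbols and mean signals but no difference between treatments. In structures of the mammalian mitoribosome the products of 2 of the Mrps genes, Mrps30 and Mrps18a, sit in the large subunit, and both were counted there when subunits were compared. The genes were thus split into 27 large-subunit proteins with a bacterial counterpart, 21 large-subunit proteins specific to mitochondria, 15 small-subunit proteins with a bacterial counterpart and 10 small-subunit proteins specific to mitochondria. Mrpl9, Mrpl11, Mrpl24 and Mrps10 were not analysed here.

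Mitoribosomes translate the few messenger RNAs of the mitochondrial genome, which encode core subunits of the respiratory chain and of ATP synthase. Their RNA is made inside the organelle, whereas all of their proteins are encoded in the nucleus, translated in the cytosol and imported. In the small intestine, dividing crypt cells at the base feed the absorptive enterocytes of the villus, a cell type rich in mitochondria.

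RNA from scrapings of rat jejunal mucosa had been hybridised to 18 Affymetrix arrays, 3 in each of 6 groups. The animals were male Sprague Dawley rats of 6 to 8 weeks, and dosing was by oral gavage once a day with inhibitors of CDK4 and CDK6, the cyclin-dependent kinases that open the way from G1 to S phase. The groups were vehicle (0.5% methyl cellulose), 2 doses of palbociclib (30 and 100 mg/kg/day), 2 of abemaciclib (36 and 120 mg/kg/day) and 1 of ribociclib (300 mg/kg/day); they are called below by compound and dose. Palbociclib was given in methyl cellulose, but abemaciclib and ribociclib in an acidic citrate buffer (10 mM, pH 3) holding hydroxypropyl methylcellulose and the detergent tween 80 (0.25%), so that for these compounds an effect of the vehicle and of the compound cannot be told apart when they are set against the vehicle arrays. Comparisons between abemaciclib doses, or between abemaciclib and ribociclib, do not carry this difference, although their doses differ. The study dosed 10 rats per group for 4 or 15 days; neither the animal nor the duration behind an array is given. The title of abemaciclib 120 replicate B gives 100 where its treatment label gives 120, so the main counts that rest on it are also given without it.

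Values are log2 signals, so a difference of 1 is a doubling, and levels of different probe sets are not compared. Mature enterocyte markers had mean log2 signals of 11.9 to 13.2 on every array. Ribociclib 300 replicate A stood apart: the median of its smooth muscle markers lay 2.35 and that of its fibroblast markers 1.90 above the vehicle mean on the log2 scale, against at most 0.79 and 1.15 on any array of the other groups, so the main counts and medians resting on it are also given without it. The 3′ minus 5′ signal of the beta-actin controls, a measure of RNA integrity, was 0.86 to 1.05 with abemaciclib 120 and 0.57 to 0.79 with vehicle. With ribociclib 300 it was 0.41, 0.40 and 0.90, so that replicates A and B lay below and replicate C above all vehicle arrays. In such bulk samples fewer cells of a type and less RNA per cell cannot be told apart.

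The promoters of some of these genes are shown because the members moved together across arrays, as described below, and because neighbours and motifs at their starts are described at the end. They were chosen after the values and motif matches were known. The sequences are RefSeq's for the rat build GRCr8, on the plus strand and 5′ to 3′, ending just before the annotated start; each holds the 250 bases upstream, or fewer where a gene on the other strand starts nearer. Capitals mark matches, on either strand, to an E-box (CACGTG, bound by Myc and related factors), an ETS motif (CCGGAAG), an NRF1 motif (nuclear respiratory factor 1; GCGCA followed at once by its reverse complement) or a GC box (GGGCGG, the Sp1 motif). Mrps2 and Mrps27 had the largest rises with abemaciclib 120, Mrps7 and Mrps18b are other small-subunit genes that rose, and Mrps11 and Mrpl46 share 1 region because they are transcribed away from each other.
Mrps2, chr3:32200827-32201076: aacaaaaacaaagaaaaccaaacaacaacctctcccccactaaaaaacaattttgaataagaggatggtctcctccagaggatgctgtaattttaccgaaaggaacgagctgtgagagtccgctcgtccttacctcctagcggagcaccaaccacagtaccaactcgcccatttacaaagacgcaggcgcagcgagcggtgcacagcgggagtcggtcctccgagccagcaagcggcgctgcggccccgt
Mrps27, chr2:32474114-32474203: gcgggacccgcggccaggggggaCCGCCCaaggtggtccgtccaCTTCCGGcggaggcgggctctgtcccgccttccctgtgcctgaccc
Mrps7, chr10:101342392-101342641: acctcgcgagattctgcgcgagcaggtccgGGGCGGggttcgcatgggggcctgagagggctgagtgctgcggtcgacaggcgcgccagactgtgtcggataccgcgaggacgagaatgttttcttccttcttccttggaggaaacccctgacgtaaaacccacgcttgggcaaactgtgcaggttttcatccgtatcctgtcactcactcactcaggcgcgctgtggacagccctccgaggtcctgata
Mrps18b, chr20:2842756-2843005: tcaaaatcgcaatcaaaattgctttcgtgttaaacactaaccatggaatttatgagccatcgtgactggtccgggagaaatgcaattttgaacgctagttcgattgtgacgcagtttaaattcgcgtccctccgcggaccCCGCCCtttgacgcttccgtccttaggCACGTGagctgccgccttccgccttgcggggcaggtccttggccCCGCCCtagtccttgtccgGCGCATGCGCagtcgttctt
Mrps11 and Mrpl46, chr1:142117031-142117263: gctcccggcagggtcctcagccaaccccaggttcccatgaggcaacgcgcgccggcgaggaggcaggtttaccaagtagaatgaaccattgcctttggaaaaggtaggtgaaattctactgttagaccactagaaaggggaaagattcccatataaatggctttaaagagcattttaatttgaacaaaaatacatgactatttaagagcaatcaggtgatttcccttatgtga
The Mrps2 region and the region between Mrps11 and Mrpl46 held none of these motifs. The Mrps27 region held a GC box whose first base is at -67 and an ETS motif at -46, counted back from -1 just before the start, both on the other strand, and Mrps7 held a GC box at -220. Mrps18b held an E-box at -83, GC boxes at -110 and -39, both on the other strand, and an NRF1 motif at -20, the only 1 of these genes with 3 kinds of motif.

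Across the 6 groups, abemaciclib 120 and ribociclib 300 held the ends of the range for most of the mitoribosomal genes. In limma's F test 34 of the 73 passed an adjusted p of 0.05, where 22.6% of all 14217 genes did. Abemaciclib 120 had the highest group mean for 67 of the 73 genes (72 without its replicate B) and ribociclib 300 the lowest for 62 (64 without its replicate A). The smallest adjusted p in the F test belonged to Mrps2 (0.00162), followed by Mrpl15 (0.00231) and Mrps27 (0.00259). The number of genes passing fell with single arrays left out, to 10 without abemaciclib 120 replicate A, 11 without its replicate C, 17 and 19 without ribociclib 300 replicates C and B, 18 without palbociclib 30 replicate B, and 21 and 22 without vehicle replicates C and B. It was 27 without abemaciclib 120 replicate B and 44 without ribociclib 300 replicate A. With the actin 3′ minus 5′ signal as a covariate it was 6. For these other fits the share of all genes is not given, so only the full fit sets the 73 beside all genes.

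The genes also varied together from array to array within a group. Each gene's signal was taken relative to its vehicle mean, and the median of these values over the 73 genes was read for each array. It was -0.21, 0.19 and 0.01 on the vehicle arrays and 0.61, 0.28 and 0.90 with abemaciclib 120. With ribociclib 300 it was -0.16, -0.81 and -0.69. The abemaciclib 120 arrays all lay above the vehicle arrays, whereas ribociclib 300 replicate A lay within their range and the other 2 below it. In abemaciclib 36 the medians were 0.22, -0.37 and 0.44, so that replicate B lay below all vehicle arrays and the other 2 above them. In palbociclib 30 they were -0.73, -0.38 and 0.15, and in palbociclib 100 they were -0.35, -0.04 and 0.15. The SD of these medians was 0.42 for abemaciclib 36, 0.45 for palbociclib 30 and 0.25 for palbociclib 100. The same median over all genes stayed between -0.06 and 0.05 on every array. The median correlation between 2 of the 73 genes was 0.82 over the 18 arrays and 0.76 after the group means were removed, a description of signals that share arrays and normalization; 67 genes of the respiratory chain and ATP synthase had 0.83 and 0.78.

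**Figure D1:**
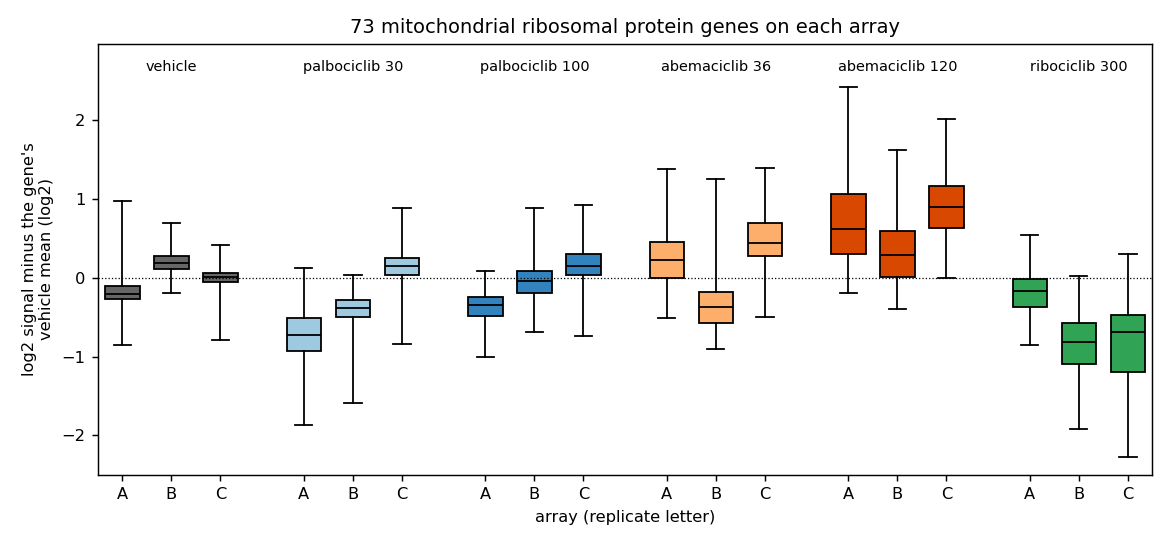
Log2 signal of the 73 mitochondrial ribosomal protein genes on each of the 18 arrays, each gene relative to its own mean over the 3 vehicle arrays. Boxes span the middle of the genes with the median as a line, and whiskers reach the lowest and highest gene; the medians of abemaciclib 120 (0.28 to 0.90) lie above and those of ribociclib 300 replicates B and C (-0.81 and -0.69) below all vehicle arrays.

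With abemaciclib 120, 12 of the 73 genes rose against vehicle and none fell (limma, adjusted p under 0.05), where 9.60% of all genes rose and 8.41% fell. The share of 12 in 73 is larger than the first of these. The shift extended over most of the genes: 69 of 73 log2 differences were above 0, with a median of 0.58, against 46.8% of all genes and a median of -0.02. In 43 of the 73 genes the lowest abemaciclib 120 array was above the highest vehicle array, and in 0 the reverse held; over all genes the shares were 18.6% and 18.7%. The genes that rose were Mrps2, Mrps27, Mrps7, Mrpl38, Mrps26, Mrpl28, Mrps18b, Mrps5, Mrps34, Mrpl4, Mrps12 and Mrps21.

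Among the small-subunit genes with a bacterial counterpart, Mrps2 encodes a protein that helps join the head of the subunit to its body. Its log2 signal was 6.56, 6.89 and 6.36 on the vehicle arrays and 9.03, 8.22 and 8.42 with abemaciclib 120. All 3 treated arrays were above all vehicle arrays, and the rise was 3.87-fold (log2 difference 1.95, SE 0.39, 95% interval 1.13 to 2.78, limma adjusted p = 0.00251). Mrps7, a protein of the head that lies near the tRNA exit site, had 7.57, 8.28 and 7.74 with vehicle and 9.77, 9.19 and 9.87 with abemaciclib 120. Again the groups did not overlap, and the log2 difference was 1.75 (SE 0.42, 95% interval 0.86 to 2.64, adjusted p = 0.0084). Mrps5, counterpart of a bacterial protein at the mRNA entry site, went from 7.86, 7.98 and 7.89 to 9.47, 8.95 and 9.20. This rise was 2.47-fold (log2 difference 1.30, SE 0.34, adjusted p = 0.014). Mrps12, whose bacterial counterpart lies in the decoding centre, rose less. Its vehicle signals were 9.09, 9.43 and 9.25 and its abemaciclib 120 signals 10.33, 10.07 and 10.21, a log2 difference of 0.95 (SE 0.30, adjusted p = 0.0412). Mrps21 had the smallest rise of the 12, with a log2 difference of 0.84 (SE 0.27, adjusted p = 0.0404).

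Small-subunit proteins found only in mitochondria gave rises of similar size. Mrps27, a pentatricopeptide repeat protein of the small subunit, had log2 signals of 5.40, 6.04 and 5.58 with vehicle and 7.84, 7.20 and 7.55 with abemaciclib 120. The groups were apart by more than a doubling at their nearest arrays, and the mean rise was 3.63-fold (log2 difference 1.86, SE 0.34, 95% interval 1.13 to 2.59, adjusted p = 0.00148). Mrps26 had 8.00, 8.52 and 8.26 with vehicle and 10.08, 9.47 and 10.07 with abemaciclib 120, a log2 difference of 1.62 (SE 0.35, adjusted p = 0.00472). Mrps18b, a diverged relative of the bacterial S18 protein, had 7.87, 8.18 and 8.25 and then 9.92, 9.17 and 9.59. Here too no treated array reached down to the vehicle range, and the log2 difference was 1.46 (SE 0.33, adjusted p = 0.00575). Mrps34 had a log2 difference of 1.05 (SE 0.35, adjusted p = 0.0456).

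Only 3 large-subunit genes passed. Mrpl38, a mitochondria-specific protein of the central protuberance, had 5.27, 5.67 and 5.59 with vehicle and 7.47, 6.87 and 7.31 with abemaciclib 120. Its rise was 3.26-fold, with no overlap between groups (log2 difference 1.71, SE 0.33, 95% interval 1.01 to 2.40, adjusted p = 0.00199). Mrpl28, which has a bacterial counterpart, had 8.27, 8.68 and 7.77 with vehicle and 9.88, 9.37 and 9.93 with abemaciclib 120, a log2 difference of 1.49 (SE 0.34, adjusted p = 0.00656). Mrpl4, counterpart of a bacterial protein that lines the exit tunnel, had a log2 difference of 1.00 (SE 0.28, adjusted p = 0.0206). Several large-subunit genes with known functions, which with Mrps2, Mrps7, Mrps12 and Mrps27 are followed through all comparisons, did not pass. Mrpl12, the stalk protein that draws translation factors to the ribosome, had 10.16, 10.53 and 10.14 with vehicle and 11.66, 11.06 and 11.44 with abemaciclib 120, without overlap, but its adjusted p was 0.0563 for a log2 difference of 1.11 (SE 0.39). Mrpl45, which lies at the exit tunnel and holds the ribosome to the inner membrane, had a log2 difference of 0.91 (adjusted p = 0.0657). Mrpl3, whose bacterial counterpart reaches towards the peptidyl transferase centre, had 0.60 (adjusted p = 0.11). Mrpl58, a hydrolase that releases peptides from stalled ribosomes, had 0.37 (adjusted p = 0.602), and Mrpl44, a protein with an RNase III fold, had 0.28 (adjusted p = 0.557). The lowest log2 difference of the 73 genes was -0.10, for Mrpl40.

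Counted by place in the ribosome, 5 of 15 small-subunit genes with a bacterial counterpart and 4 of 10 mitochondria-specific ones rose, with median log2 differences of 0.84 and 0.86. Of the large-subunit genes 2 of 27 with a bacterial counterpart and 1 of 21 mitochondria-specific ones rose, with medians of 0.45 and 0.57. Both kinds of protein thus had like medians within a subunit, and the medians of the small subunit were the higher ones. The difference between subunits was not tested.

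**Figure D2:**
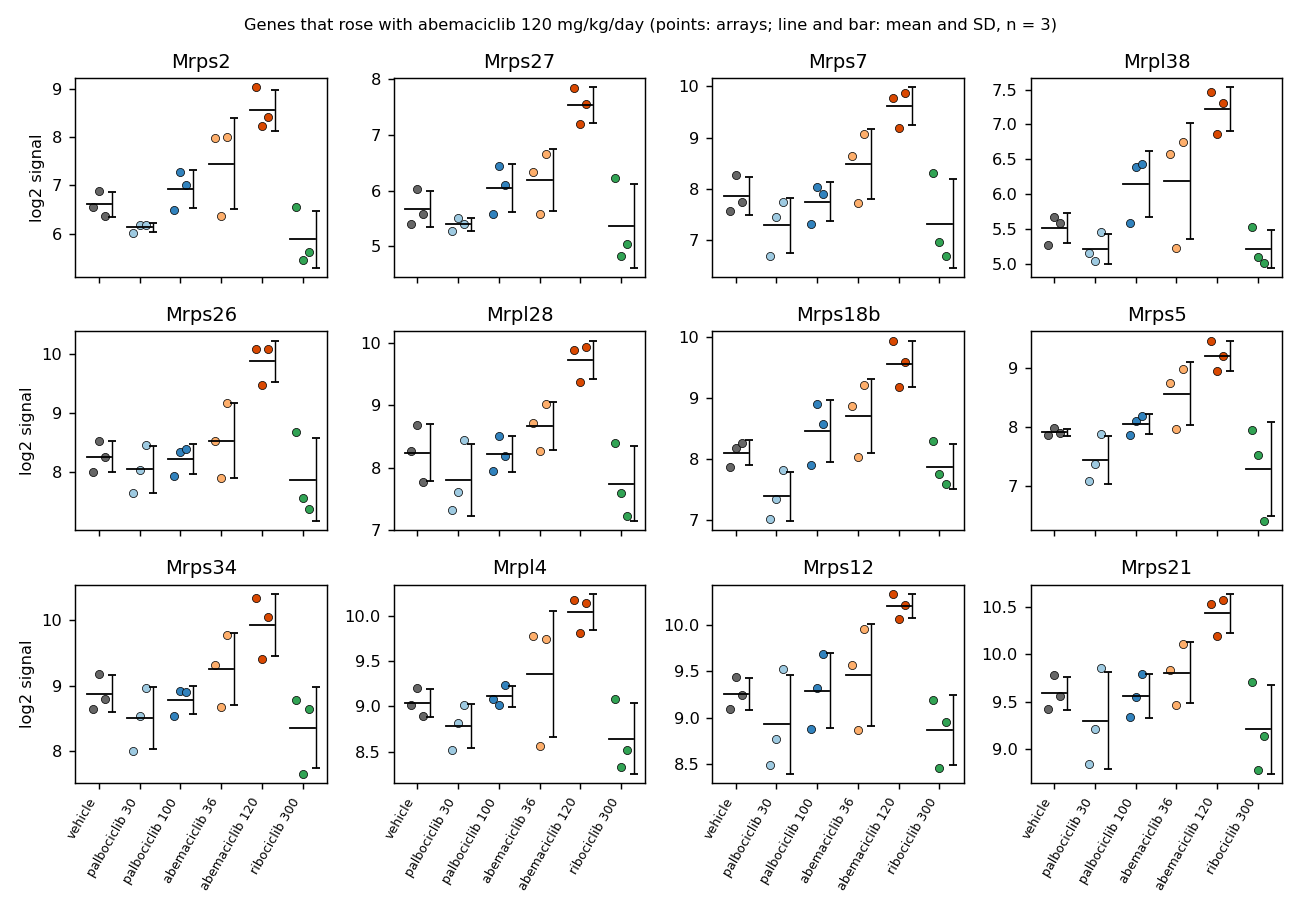
Log2 signal of the 12 mitochondrial ribosomal protein genes that rose with abemaciclib 120 against vehicle, by group; points are arrays, the line and bar beside them the mean and SD of 3 arrays, and each panel has its own axis, which does not start at 0. In every panel the 3 abemaciclib 120 arrays lie above the 3 vehicle arrays, and abemaciclib 36 spreads over a wide range.

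In limma fits that left out 1 array of either group, 7 to 14 genes passed, 7 without abemaciclib 120 replicate A and 14 without replicate B, whose title and label differ. Mrps2, Mrps27, Mrps7, Mrpl38, Mrps26, Mrpl28 and Mrps18b passed in all 6 of these fits. With the actin covariate 8 genes passed, and with only the arrays of these 2 groups in the fit 24. The shares of all genes in these fits are not given, so the counts do not set the 73 against all genes. Without replicate B all 73 log2 differences were above 0, with a median of 0.76, and the arrays of 59 genes did not overlap. With fewer arrays groups are apart more easily. The count of 59 is thus not comparable with that from all arrays, and the share of all genes is not given beside it.

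The choice of probe set bears on the 2 largest rises and on that of Mrps26. Of the 18 genes with several probe sets, 5 had some that passed and some that did not, and 4 had log2 differences of both signs. The 2 other probe sets of Mrps2 had log2 differences of 0.12 and 0.03 (adjusted p = 0.787 and 0.922 in limma with each probe set as a feature), so that its rise rests on the brightest. Those of Mrps27 had 0.52 (adjusted p = 0.0573) and 0.95 (adjusted p = 0.00198). The other probe set of Mrps26 had 0.089 (adjusted p = 0.67), so that this rise too rests on the brightest.

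Markers of cell types moved with abemaciclib 120 as well. Of 9 markers of proliferating crypt cells 7 rose, with a median log2 difference of 2.87; their mean log2 signal was 8.72 to 9.27 on these arrays and 6.12 to 6.87 with vehicle. All 8 markers of intestinal stem cells rose, with mean signals of 6.55 to 7.42 against 4.92 to 5.28. Conversely 4 of 11 markers of mature enterocytes, 10 of 12 of T and NK cells and 6 of 7 of macrophages and dendritic cells fell. Without abemaciclib 120 replicate B the counts were 7 of 9 crypt and 7 of 8 stem cell markers that rose, and 6 of 11 enterocyte, 10 of 12 T and NK cell and 6 of 7 macrophage and dendritic cell markers that fell. The part of these shifts in the rise of the mitoribosomal genes was not tested.

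Ribociclib 300 gave values on the other side. Against vehicle 2 of the 73 genes fell, Mrpl15 and Mrpl34, and 0 rose. Of all genes 2.74% fell, 0.999% rose and 3.73% changed either way. The share of 2 in 73, also 2.74%, is thus no larger than that of all genes that fell. An unadjusted p under 0.05 was found in 28 of the 73 and in 2869 of all 14217 genes. The log2 differences were below 0 in 71 of the 73 genes, with a median of -0.62, while the median over all genes was 0.00. Mrpl15, a large-subunit protein with a bacterial counterpart, had log2 signals of 10.52, 10.53 and 10.54 with vehicle and 9.67, 9.28 and 9.20 with ribociclib 300. Its vehicle arrays lay closely together and all ribociclib arrays below them, a fall of 2.21-fold (log2 difference -1.15, SE 0.21, 95% interval -1.58 to -0.71, adjusted p = 0.00795). Mrpl34, another protein shared with bacteria, had 8.67, 8.71 and 8.56 with vehicle and 8.19, 7.49 and 7.89 with ribociclib 300, a log2 difference of -0.79 (SE 0.20, adjusted p = 0.0423). Neither of these was among the genes that rose with abemaciclib 120, where Mrpl15 had a log2 difference of 0.25 and Mrpl34 of 0.02.

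Some differences larger than that of Mrpl34, with wider error, did not pass. Mrps30 had a log2 difference of -1.25 (SE 0.45, adjusted p = 0.127). Mrpl12 had ribociclib 300 signals of 10.02, 8.85 and 8.72, and its log2 difference was -1.08 (SE 0.39, adjusted p = 0.128). Mrpl58 had 8.48, 7.45 and 7.38 against 8.52, 9.14 and 8.83 with vehicle, a log2 difference of -1.06 (SE 0.39, adjusted p = 0.142). In both genes replicate A was the highest of the ribociclib arrays. Mrpl44 had 7.74, 7.24 and 7.16 against 8.25, 8.33 and 8.37, without overlap, and a log2 difference of -0.94 (SE 0.27, adjusted p = 0.0666). The other genes followed through all comparisons had smaller differences: -0.72 for Mrps2, -0.68 for Mrpl45, -0.60 for Mrpl3, -0.54 for Mrps7, -0.39 for Mrps12 and -0.31 for Mrps27, with adjusted p-values of 0.188 to 0.629.

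Without ribociclib 300 replicate A, the array with high smooth muscle and fibroblast markers, 15 of the 73 genes fell in the limma fit, among them Mrpl12 (log2 difference -1.49), Mrpl44 (-1.12), Mrpl58 (-1.42) and Mrps30 (-1.80), while 9.26% of all genes then changed in either direction. The log2 differences of 72 of the 73 genes were then below 0, with a median of -0.81. Without any 1 of the vehicle arrays or of the other 2 ribociclib arrays only 1 gene passed, and Mrpl15 was the gene that passed in all 6 of these fits. With only the arrays of these 2 groups in the fit 0 of the 73 passed, Mrpl15 having an adjusted p of 0.0633, and 0.204% of all genes did. With the actin covariate, whose values ran apart among the ribociclib arrays, 1 passed.

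**Figure D3:**
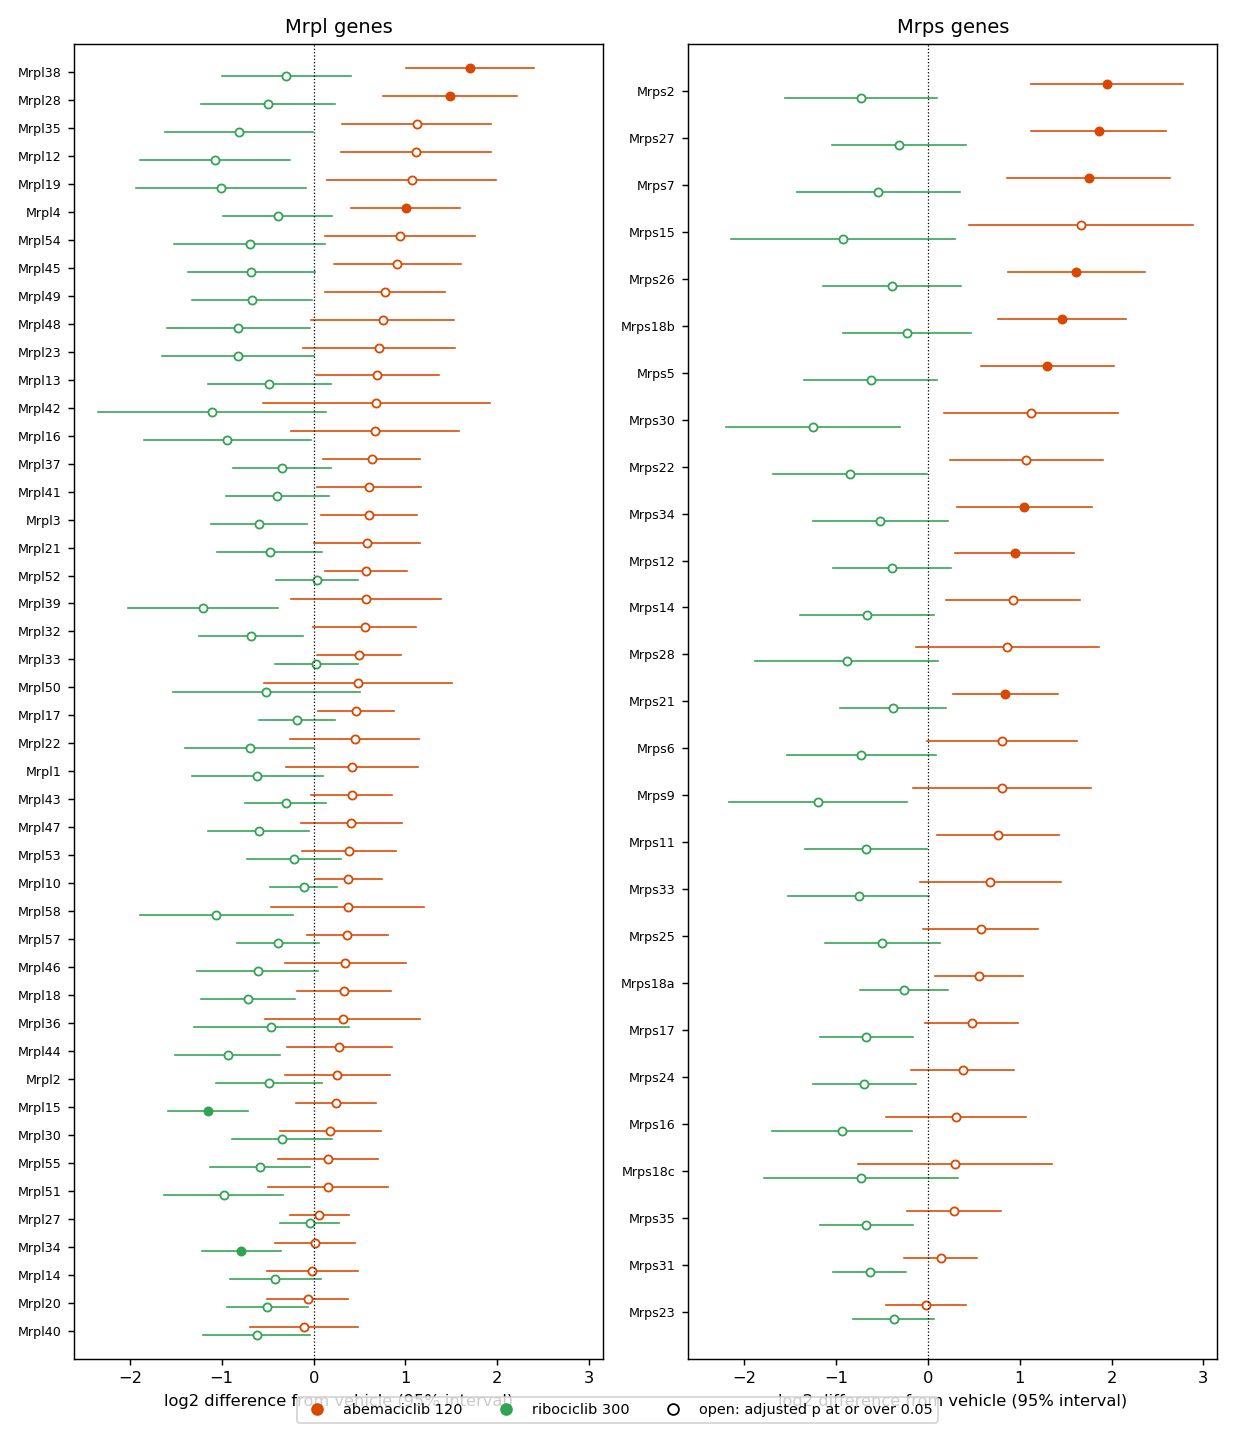
Log2 difference from vehicle of each of the 46 Mrpl and 27 Mrps genes with abemaciclib 120 (orange) and ribociclib 300 (green), with 95% intervals from limma; filled points have an adjusted p under 0.05. The genes are ordered by the abemaciclib difference, and both series share the 3 vehicle arrays; 69 abemaciclib points lie above 0 and 71 ribociclib points below it.

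Set directly against each other, abemaciclib 120 and ribociclib 300 differed in most of the mitoribosomal genes. Of the 73 genes 60 were higher with abemaciclib 120 and 0 lower (limma, adjusted p under 0.05), where 17.2% of all genes were higher and 27.2% differed either way. All 73 log2 differences were above 0, with a median of 1.22, against 44.9% of all genes and a median of -0.05. In 66 genes the 2 groups of 3 arrays did not overlap, as was the case with 20.0% of all genes in that direction. The doses differ (120 against 300 mg/kg/day), so the comparison is of these 2 groups and not of the compounds at a matched dose.

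By the brightest probe sets the largest difference was that of Mrps2, with 5.45 to 6.56 across the ribociclib arrays and 8.22 to 9.03 across those of abemaciclib, a log2 difference of 2.68 (SE 0.39, 95% interval 1.85 to 3.51, adjusted p = 0.000456). The direction turned with the probe set: the other 2 of Mrps2 had log2 differences of -0.11 and -0.044, neither of which passed. Mrps15, counterpart of a bacterial small-subunit protein, followed with 8.17, 6.00 and 6.06 against 9.69, 9.03 and 9.30 (log2 difference 2.60, SE 0.58, adjusted p = 0.00423). Replicate A was again the highest ribociclib array by a wide margin. Mrps30, in the large subunit despite its symbol, had a log2 difference of 2.38 (SE 0.45, adjusted p = 0.00172), and Mrps7 of 2.29 (SE 0.42, adjusted p = 0.00151). The stalk protein gene Mrpl12 reached 2.19 (SE 0.39, adjusted p = 0.00121), and Mrps27 reached 2.17 (SE 0.34, adjusted p = 0.000655). Mrpl19 had 2.08, and Mrps9 and Mrps26 both 2.01. Of the other genes followed throughout, Mrpl45 was higher by 1.59, Mrpl58 by 1.44, Mrps12 by 1.34, Mrpl44 by 1.22 and Mrpl3 by 1.20, and all 5 passed (adjusted p = 0.00282 to 0.0141). With each probe set as a feature, 10 of the 18 genes with several probe sets had some that passed and some that did not. In 5 of the 18 the log2 differences had both signs.

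By subunit the genes higher with abemaciclib 120 were 14 of 15 and 9 of 10 of the small subunit (bacterial counterpart and mitochondria-specific, in this order) and 20 of 27 and 17 of 21 of the large subunit. The median log2 difference was 1.53 over the 27 Mrps genes and 1.05 over the 46 Mrpl genes. Of the 13 genes that did not pass, 11 were in the large subunit, among them Mrpl27 with the smallest difference of all (0.10, 95% interval -0.22 to 0.43), Mrpl14 (0.40) and Mrpl20 (0.44).

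In limma, 60 genes passed without abemaciclib 120 replicate B, 59 without ribociclib 300 replicate A, and 45 to 60 over all fits with 1 array left out. The share of all genes in these fits is not given, so the counts do not set the 73 beside all genes. All 73 log2 differences stayed above 0 without either array, with medians of 1.36 and 1.45, and the arrays of 70 and 69 genes did not overlap. With fewer arrays groups are apart more easily, so the counts of 70 and 69 are not comparable with that from all arrays. With the actin covariate 19 passed, and with only these 2 groups in the fit 35, both without the share of all genes beside them. When each array was centred on its median over the genes, 53 passed and all were higher, while the split over all genes changed from 2442 higher and 1423 lower to 1721 higher and 5266 lower.

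Abemaciclib 36 had no gene of the 73 that passed against vehicle in limma, where 2.08% of all genes did. Before adjustment 1 of the 73 and 1960 of all 14217 genes had a p under 0.05. The median of the 73 log2 differences was 0.08, and 46 of them were above 0. Mrps2 had 7.98, 6.36 and 8.00, so that replicate B lay level with the lowest vehicle array and the other 2 well above all of them, and its log2 difference was 0.84 (SE 0.39, adjusted p = 0.349). Mrpl38 had the same shape, with 6.57, 5.23 and 6.75 (log2 difference 0.67, SE 0.33, adjusted p = 0.386), and Mrps5 had 8.74, 7.96 and 8.99 (0.66, SE 0.34, adjusted p = 0.422). The other followed genes had log2 differences of 0.62 (Mrps7), 0.51 (Mrps27), 0.48 (Mrpl12), 0.20 (Mrps12), 0.15 (Mrpl3), 0.10 (Mrpl45), -0.094 (Mrpl58) and -0.11 (Mrpl44), with adjusted p-values of 0.577 to 0.953. Without replicate B, Mrps2 (log2 difference 1.39, adjusted p = 0.0285) and Mrpl38 (1.15, adjusted p = 0.0269) passed, while 3.73% of all genes did.

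Between the abemaciclib doses 3 genes were higher at 120 than at 36 mg/kg/day, where 4.82% of all genes were higher and 7.59% differed. The share of 3 in 73, 4.11%, is below the first of these. The 3 genes were Mrps27 (log2 difference 1.34, SE 0.34, limma adjusted p = 0.0249), Mrps26 (1.35, SE 0.35, adjusted p = 0.0275) and Mrpl41 (0.94, SE 0.27, adjusted p = 0.0401), a mitochondria-specific protein of the large subunit. In limma with each probe set as a feature, the other one of Mrps26 had 0.11 (adjusted p = 0.641). Those of Mrps27 had 0.41 (adjusted p = 0.22) and 0.79 (adjusted p = 0.015). Mrpl41 had 9.81, 9.30 and 10.12 at the lower dose and 10.87, 10.39 and 10.79 at the higher, while its vehicle arrays, at 9.77, 10.34 and 10.12, lay nearer to the lower dose. The other followed genes were higher at 120 mg/kg/day by 1.13 (Mrps7), 1.11 (Mrps2), 0.81 (Mrpl45), 0.74 (Mrps12), 0.63 (Mrpl12), 0.47 (Mrpl58), 0.46 (Mrpl3) and 0.39 (Mrpl44) on the log2 scale, and none of them passed (adjusted p = 0.103 to 0.552). The median of the 73 log2 differences was 0.48, with 70 above 0. None of the 3 passed without abemaciclib 36 replicate A or B, or without abemaciclib 120 replicate A or C, and none with the actin covariate. All 3 passed without abemaciclib 36 replicate C, and without abemaciclib 120 replicate B, whose title and label differ.

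Against ribociclib 300, abemaciclib 36 was higher in all 73 genes by the sign of the log2 difference, with a median of 0.71. In limma 45 of the 73 had an unadjusted p under 0.05, as had 2547 of all 14217 genes. After adjustment 0 of the 73 passed, where 0.380% of all genes did. Mrpl15 came nearest, with 10.56, 9.88 and 10.67 against 9.67, 9.28 and 9.20 (log2 difference 0.98, SE 0.21, adjusted p = 0.0506). Mrpl12 had 1.56 (adjusted p = 0.0808) and Mrps2 1.57 (adjusted p = 0.0819), with overlapping arrays. The other followed genes had 1.16 (Mrps7), 0.97 (Mrpl58), 0.83 (Mrpl44 and Mrps27), 0.78 (Mrpl45), 0.74 (Mrpl3) and 0.59 (Mrps12), with adjusted p-values of 0.151 to 0.315. This count turned on single arrays: 27 genes were higher without ribociclib 300 replicate A, with 10.7% of all genes changed, and 20 without abemaciclib 36 replicate B, with 6.77%.

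Neither palbociclib dose gave a passing gene, among the 73 or among all 14217 (0.00%). At 100 mg/kg/day the median log2 difference from vehicle was -0.08. Of the 73, 0 had an unadjusted p under 0.05, where 1023 of all 14217 genes did. Mrpl38 had the smallest p, with 5.59, 6.39 and 6.43 (log2 difference 0.63, SE 0.33, adjusted p = 0.712), followed by Mrpl34 (-0.32) and Mrpl30 (-0.40). The followed genes lay at 0.37 (Mrps27), 0.32 (Mrps2), 0.25 (Mrpl12), 0.034 (Mrps12), -0.020 (Mrpl3), -0.053 (Mrpl44 and Mrpl45), -0.11 (Mrps7) and -0.21 (Mrpl58). At 30 mg/kg/day all 73 log2 differences were below 0, with a median of -0.32. An unadjusted p under 0.05 was found in 357 of all 14217 genes and in 2 of the 73. These were Mrpl42 (log2 difference -1.43, SE 0.59) and Mrps18b (-0.71, SE 0.33), both with an adjusted p of 0.998, and Mrpl39 came next (-0.67). The followed genes lay at -0.57 (Mrps7), -0.53 (Mrpl58), -0.48 (Mrps2), -0.44 (Mrpl12), -0.43 (Mrpl45), -0.33 (Mrps12), -0.28 (Mrps27), -0.27 (Mrpl3) and -0.27 (Mrpl44). As shown by the array medians, replicate A was the lowest of this group and replicate C, at 0.15, lay within the vehicle range. Between the palbociclib doses 0 genes passed (0.00% of all genes). Mrps18b was 1.07 higher at 100 mg/kg/day on the log2 scale (SE 0.33, adjusted p = 0.997), and Mrpl38 was 0.92 and Mrps2 0.79 higher. Before adjustment 2 of the 73 and 619 of all 14217 genes had a p under 0.05. The other followed genes were also higher at 100 mg/kg/day, by 0.69 (Mrpl12), 0.65 (Mrps27), 0.46 (Mrps7), 0.38 (Mrpl45), 0.36 (Mrps12), 0.32 (Mrpl58), 0.25 (Mrpl3) and 0.21 (Mrpl44), and none passed (adjusted p = 0.997).

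The other genes of mitochondrial gene expression were read from lists that do not hold the 73. Of 6 measured mitoribosomal proteins with other names 1 rose with abemaciclib 120 against vehicle, Dap3, a GTP-binding protein of the small subunit (log2 difference 1.18, SE 0.24, limma adjusted p = 0.00319). Its signals were 7.98, 8.13 and 7.86 with vehicle and 9.48, 8.89 and 9.15 with abemaciclib 120, without overlap. Of 18 mitochondrial tRNA synthetases, which charge the tRNAs, 6 rose, with a median log2 difference of 0.50. Yars2, the enzyme for tyrosine, had the smallest p, with 4.01, 4.34 and 4.09 and then 7.11, 6.81 and 7.26 (2.91, SE 0.32, adjusted p = 4.15e-05). Of 11 translation factors 1 rose, the initiation factor gene Mtif2 (0.60, adjusted p = 0.0312), while the elongation factor gene Tufm had 0.95 (adjusted p = 0.0659). Of 28 genes of mitoribosome assembly and rRNA modification 9 rose, among them Noa1, a GTPase of small-subunit assembly (1.67, adjusted p = 0.00136), and C1qbp (2.44, adjusted p = 0.00652). Of 26 genes of mitochondrial DNA expression 8 rose, among them Elac2, which trims the 3′ ends of tRNAs (1.28, adjusted p = 0.000227), Tfam, which packages mitochondrial DNA (1.17, adjusted p = 0.0351), and Lrpprc, which stabilises mitochondrial mRNAs (1.44, adjusted p = 0.0262). Polrmt, the mitochondrial RNA polymerase, had 0.14 (adjusted p = 0.731). In these 5 lists 0 genes fell. Without abemaciclib 120 replicate B the counts that rose were 2 of 6, 7 of 18, 2 of 11, 11 of 28 and 10 of 26, in the order given.

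Of 10 measured regulators of mitochondrial biogenesis 2 rose and 1 fell with abemaciclib 120. Myc rose from 4.96, 5.78 and 4.85 to 8.62, 7.76 and 7.14 (log2 difference 2.64, SE 0.49, limma adjusted p = 0.00145). Pprc1, a coactivator related to PGC-1alpha, rose by 2.28 (SE 0.40, adjusted p = 0.00103). Ppargc1a, which encodes PGC-1alpha itself, a coactivator of mitochondrial biogenesis, fell from 9.03, 8.61 and 8.60 to 6.46, 7.13 and 6.78 (-1.96, SE 0.28, adjusted p = 0.000274). It also fell with abemaciclib 36 (-1.94, limma adjusted p = 0.0029) and with ribociclib 300 (-2.47, adjusted p = 0.000547). Without ribociclib 300 replicate A its log2 difference was -2.32 (limma adjusted p = 0.00107). The median log2 difference of the mitoribosomal genes from vehicle was 0.58 with abemaciclib 120, 0.08 with abemaciclib 36 and -0.62 with ribociclib 300. A link between Ppargc1a and these genes was not tested. Myc had a log2 difference of -0.26 with ribociclib 300 (adjusted p = 0.792).

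The processes before and after mitochondrial translation gave unlike values with abemaciclib 120. Of 23 genes of cytosolic ribosome biogenesis, which builds ribosomes in the nucleolus, 19 rose against vehicle, with a median log2 difference of 1.53. Examples were Dkc1, the pseudouridine synthase of the nucleolus (2.53, SE 0.37, limma adjusted p = 0.000307), and Nop56 (2.08, SE 0.32, adjusted p = 0.000406). Of 19 mitochondrial chaperones and import proteins 12 rose, with a median of 0.95, among them Hspd1, the chaperonin of the matrix (1.90, SE 0.46, adjusted p = 0.00863), and Tomm40, the pore of the outer membrane (1.70, SE 0.41, adjusted p = 0.00857). By contrast, of 67 subunits of the respiratory chain and ATP synthase, the complexes whose core the mitoribosome makes, 0 passed in limma against vehicle (1 had an unadjusted p under 0.05), and their median was 0.08. The smallest p of these belonged to Atp5me (0.46, SE 0.20, adjusted p = 0.134). With ribociclib 300, 5 of the 67 fell, with a median of -0.49 and all 67 below 0. For ribosome biogenesis 0 passed with ribociclib 300 (1 had an unadjusted p under 0.05), with a median of -0.10, so that the mitoribosomal median of -0.62 lay nearer to that of the respiratory chain. Without ribociclib 300 replicate A, 28 of the 67 respiratory chain genes and 1 of the 23 fell, with medians of -0.57 and -0.24 beside the mitoribosomal -0.81. Without abemaciclib 120 replicate B, 20 of the 23, 14 of the 19 and 0 of the 67 rose against vehicle. The difference between these lists was not tested.

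Directly between abemaciclib 120 and ribociclib 300, the genes higher with abemaciclib were 22 of 23 for ribosome biogenesis, 16 of 19 for chaperones and import, 43 of 67 for the respiratory chain, with a median log2 difference of 0.56, 17 of 28 for assembly and rRNA modification and 21 of 26 for mitochondrial DNA expression. All 9 measured markers of proliferating crypt cells were also higher, with a median of 2.93, and 4 of 11 markers of mature enterocytes were lower. Without ribociclib 300 replicate A the counts were 21 of 23, 16 of 19, 54 of 67, 18 of 28 and 21 of 26 in these lists, with 9 of 9 crypt markers higher and 4 of 11 enterocyte markers lower. Without abemaciclib 120 replicate B they were 21, 17, 41, 18 and 22, with the same marker counts. What part these markers had in the 60 mitoribosomal genes was not tested.

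**Figure D4:**
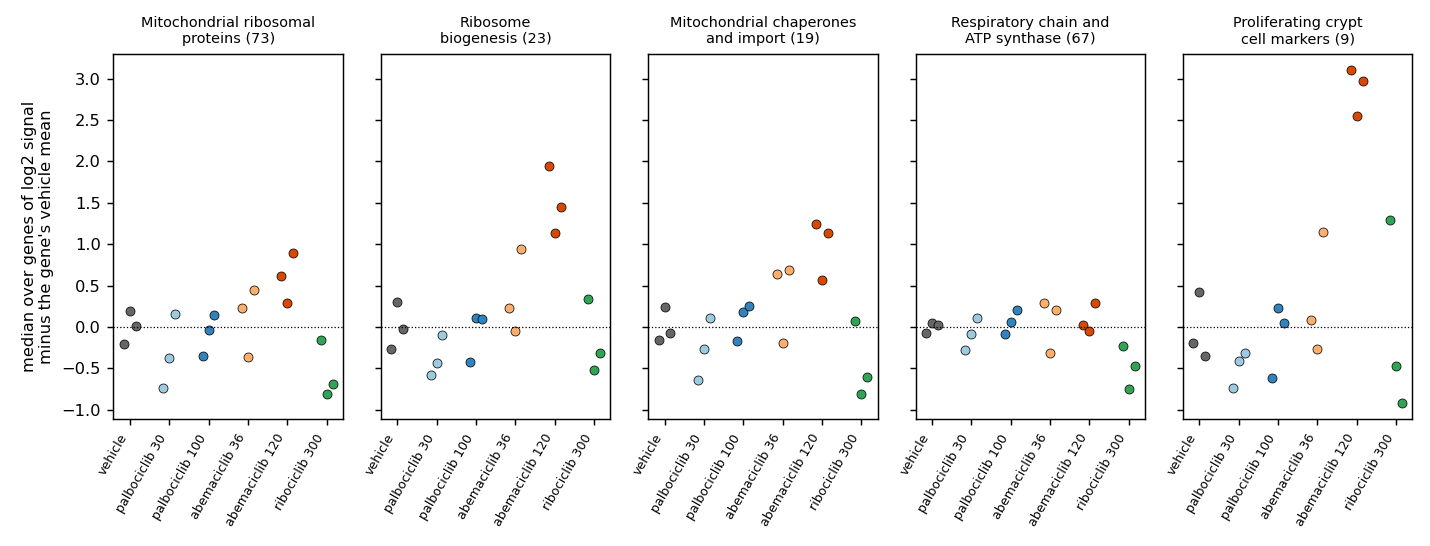
Median over the genes of a list of the log2 signal relative to each gene's vehicle mean, for each of the 18 arrays in 6 groups, with the number of genes in each list; points are arrays. With abemaciclib 120 the mitochondrial ribosomal proteins lie at 0.28 to 0.90, ribosome biogenesis at 1.13 to 1.95, the respiratory chain and ATP synthase at -0.05 to 0.30 and the crypt markers at 2.54 to 3.10.

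Promoter sequences of 59 of the 73 genes could be matched by symbol in the RefSeq table. In the 250 bases upstream, the ETS motif occurred in 22.0% of the 59 genes and in 12.9% of the 11733 array genes with a promoter, and the NRF1 motif in 6.78% (4 genes) and 1.47%. The E-box was found in 6.78% and 7.82%, and the GC box in 45.8% and 54.2%. In 23 of the 59 genes none of the motifs was found. The GC content was 54.4% in the median gene of the 59 and 59.2% in the median array gene. These shares were not tested, and a match of letters is not evidence of binding. With abemaciclib 120 against vehicle the median log2 difference was 0.38 in the 13 genes with an ETS motif and 0.59 in the 46 without, 0.31 in the 4 with an E-box and 0.57 in the 55 without, and 0.61 in the 27 with a GC box and 0.52 in the 32 without. For abemaciclib 120 against ribociclib 300 the medians were 0.78 and 1.22 with and without an ETS motif (7 of 13 and 39 of 46 genes passed), 0.90 and 1.20 for the E-box (1 of 4 and 45 of 55), 1.23 and 1.14 for the NRF1 motif (4 of 4 and 42 of 55) and 1.24 and 1.14 for the GC box (21 of 27 and 25 of 32). Genes with an ETS motif or an E-box thus had the lower medians in both comparisons. The 4 with an NRF1 motif had the lower median only against vehicle (0.51, and 0.57 in the 55 without). The differences were not tested.

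Many of these genes lie head to head with another gene. An oppositely directed start within 1000 bases was found for 18 of the 59 genes (30.5%) and for 14.7% of the array genes. Mrps11 and Mrpl46 form such a pair within the family, with 233 bases between their starts on chromosome 1. Mrps11 had vehicle signals of 7.40, 7.76 and 7.64 and abemaciclib 120 signals of 8.67, 7.90 and 8.52 (log2 difference 0.76, SE 0.31, limma adjusted p = 0.109). Mrpl46 had 7.57, 8.15 and 7.97 and then 8.07, 7.82 and 8.84, which overlapped (0.34, SE 0.31, adjusted p = 0.526). Of the 12 neighbours outside the family that were measured, 2 rose with abemaciclib 120 against vehicle and 5 were higher than with ribociclib 300. Tcp1, a subunit of the cytosolic chaperonin that starts 425 bases from Mrpl18, rose by 1.48 on the log2 scale (adjusted p = 0.0187), where Mrpl18 had 0.33. Ncapd2, a condensin subunit 50 bases from Mrpl51, rose by 2.30 (adjusted p = 0.000581), where Mrpl51 had 0.16. Ptcd2, 91 bases from Mrps27, had 0.65 (adjusted p = 0.0582), where Mrps27 rose by 1.86. These 3 pairs had unlike values, and others had like ones. Mrpl47 and Ndufb5, a complex I subunit 244 bases away, had 0.41 and 0.35 with abemaciclib 120 and -0.60 and -0.66 with ribociclib 300, against vehicle. Mrpl40 and Hira, 186 bases apart, had -0.62 and -0.70 with ribociclib 300 but -0.10 and 0.51 with abemaciclib 120. The pairs named were chosen after their values were seen.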

How the data were processed

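Each array's deposited table column holds log2 signals per probe set; Transcriptome Analysis Console, Affymetrix Expression Console and RMA are named, without settings, in the submitters' processing notes. RMA as usually run equalises signal distributions between arrays, so a change in total RNA per cell would not be seen. The array number limits the precision, and detection calls were not used here. Of 31099 probe sets, 57 were controls, 20826 had 1 symbol, 436 had several and 9780 were unnamed in the platform annotation, which can be old.

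This gene family, the lists and the tests were chosen with earlier results of these data known, although the rule that picks the 73 genes reads no treatment difference. Arrays were grouped by treatment label. All 18 arrays entered a model of 6 group means (12 residual degrees of freedom) in limma 3.58.1 (R 4.3.3; lmFit, and eBayes with an intensity trend). Two-sided p-values were adjusted by Benjamini and Hochberg over the 14217 genes of each of 9 comparisons and the F test, with a threshold of 0.05; they measure the spread between these arrays, which may be technical. For each comparison the 8 largest rises and falls among passing genes were named, or the 3 smallest p-values where none passed, with Mrpl12, Mrpl58, Mrpl44, Mrpl45, Mrpl3, Mrps12, Mrps7, Mrps27 and Mrps2 always; other passing genes were added after their values were seen. Of each other list up to 4 genes were named by p, with Myc, Ppargc1a, Tfam, Polrmt, Tufm, Dap3 and Lrpprc always.

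The fit was tested on simulated data with 200 of the 14217 genes changed and noise independent between genes. In the comparison of abemaciclib 120 with vehicle, 28% of the genes changed 1.5-fold passed, and 72% at 2-fold, 94% at 4-fold and 98% at 8-fold; 8 of 154 calls were false. Changes under 2-fold were thus often not detectable. Promoter windows were searched on both strands in 27457 RefSeq entries, 1 per symbol, and the 50 bases after each start were not used. Alternatives were quantile re-normalization, median centring, genes with a mean signal under the 30th percentile left out, the mean of probe sets, each probe set as a feature, no intensity trend, the replicate letter as a block, the actin covariate, only the groups compared and leaving out each array. The counts of the other lists and of the markers without abemaciclib 120 replicate B or ribociclib 300 replicate A were added after seeing the data. Other steps used Python 3.11.15, pandas 2.3.3, numpy 2.4.6 and matplotlib 3.10.9.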

Additional observations from a re-analysis of the deposited data

How the results depend on the processing

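Calls are counts of the 73 genes at an adjusted p under 0.05 in limma. They do not compare the 73 with all genes under the same setting. With 1 array left out they ranged from 10 to 48 in the F test (34 with all arrays), 7 to 14 for abemaciclib 120 against vehicle (12), 0 to 2 for abemaciclib 36 against vehicle (0), 1 to 15 for ribociclib 300 against vehicle (2), 0 to 4 between the abemaciclib doses (3), 45 to 60 for abemaciclib 120 against ribociclib 300 (60) and 0 to 27 for abemaciclib 36 against ribociclib 300 (0). They stayed at 0 in the palbociclib comparisons. In every such fit 7 of the 12, 37 of the 60, 10 of the 34 and 1 of the 2 passed. With the actin covariate 6 passed in the F test, 19 for abemaciclib 120 against ribociclib 300, 0 between the abemaciclib doses and 1 for ribociclib 300 against vehicle. With only the groups compared in the fit 24 passed for abemaciclib 120 against vehicle, 35 for abemaciclib 120 against ribociclib 300, 0 for ribociclib 300 against vehicle and 0 between the abemaciclib doses, from fewer arrays. For ribociclib 300 against vehicle 1 passed after quantile re-normalization and 1 after median centring, and for abemaciclib 36 against ribociclib 300 only Mrpl15 passed with dim genes left out and without the intensity trend (1 in both). The cause of these changes was not tested. Median centring subtracts the difference of the array medians between 2 groups from every log2 difference. Against vehicle this difference of medians was 0.11 (abemaciclib 120), -0.18 (ribociclib 300), -0.14 (palbociclib 30) and -0.11 (palbociclib 100). Between the abemaciclib doses it was 0.18, and for abemaciclib 120 and 36 against ribociclib 300 it was 0.28 and 0.11.

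Replicate letters did not pair the arrays: deviations of same-letter arrays correlated at a median of 0.05 (-0.31 to 0.59 over 45 pairs) and those of other letters at -0.04. With the replicate letter as a block 4 genes passed for ribociclib 300 against vehicle (Mrpl15, Mrpl34, Mrpl44 and Mrps31) and 1 for abemaciclib 36 against ribociclib 300 (Mrpl15), and the block moved no other count by over 1.5 times.

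Log2 differences that changed sign with the setting did not pass under it. Over fits with 1 array left out, abemaciclib 36 against vehicle gave -0.34 to 0.31 for Mrpl58, -0.28 to 0.14 for Mrpl44, -0.11 to 0.30 for Mrpl45 and -0.042 to 0.50 for Mrps12. For palbociclib 100 the ranges were -0.21 to 0.030 for Mrpl44, -0.22 to 0.16 for Mrpl45, -0.080 to 0.035 for Mrpl3, -0.26 to 0.10 for Mrps7 and -0.16 to 0.24 for Mrps12, and between the palbociclib doses -0.011 to 0.45 for Mrpl44. With palbociclib 100, quantile re-normalization turned Mrpl44 to 0.042, Mrpl45 to 0.029, Mrpl3 to 0.020 and Mrps7 to 0.0059, and median centring turned them to 0.0607, 0.0608, 0.094 and 0.0019. The other probe sets of Mrps2 had 0.24 and 0.073 for ribociclib 300, and 1 had 0.072 for palbociclib 30, against vehicle. They had -0.0057 and -0.11 between the abemaciclib doses, -0.11 and -0.044 for abemaciclib 120 against ribociclib 300, and 1 had -0.11 for abemaciclib 36 against ribociclib 300. Those of Mrps27 had 0.054 and 0.094 for ribociclib 300 and 0.096 and 0.084 for palbociclib 30 against vehicle, and -0.023 and -0.070 between the palbociclib doses.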
